A study of Mus musculus with 14 samples.

Results

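The comparison described here is that of whole lungs of Atxn1L -/- mice with those of wild-type controls at postnatal day 6. It rests on 8 of the 14 arrays of the series, chosen by their labels: the 4 labelled as Atxn1L knockouts and the 4 labelled as wild-type controls for them. All 8 mice were on C57BL/6J and came, per the series text, from intercrosses of heterozygotes, so that knockouts and controls could be littermates, though litters are not given. The lungs were frozen after dissection, and 100 ng of total RNA from each was labelled and hybridised to an Affymetrix mouse Gene ST 1.0 array. Per the series text lungs were taken pairwise, but nothing in the labels ties a given knockout array to its wild-type partner. The other 6 arrays, 3 Atxn1 -/- lungs with 3 wild types of their own, serve only to ask whether a difference differed between the knockouts. The genotype is given as homozygous, with no Cre driver or cell-type promoter named.

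Ataxin-1-like, the product of Atxn1l, is a paralogue of ataxin-1, and both bind Capicua, a DNA-binding repressor that silences targets of receptor tyrosine kinase signalling such as the Etv transcription factors. Loss of the partners is known to lower the Capicua protein and to relieve its targets. In the lung the days after birth are those in which septa grow out into the air sacs, elastic fibres are laid down at their tips, and macrophages settle in the air spaces. Matrix metalloproteinases, several of them made by leukocytes, cut the matrix during that remodelling.

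Values are log2 levels from the deposited RMA normalisation, in which a difference of 1 is a 2-fold change. They were read for 21212 probe sets, each built for 1 gene. Differences are knockout minus wild type with the standard error (SE) of the limma fit, and a transcript is said to have risen or fallen only when its two-sided limma p, adjusted after Benjamini and Hochberg over all 21212 probe sets, was under 0.05. Median levels of the 8 arrays lay between 8.44 and 8.53, and each array correlated across genes with its closest neighbour at r of 0.994 to 0.998. The tissue label held: the surfactant transcript Sftpc lay between 13.87 and 13.96 on every array, Ager of the flat alveolar type 1 cells between 12.50 and 12.67, Scgb1a1 of the airway club cells between 13.55 and 13.67 and Pecam1 of the endothelium between 12.06 and 12.25. Adipoq of fat lay between 4.82 and 5.04, Rag1 of the thymus between 6.15 and 6.51, and Myh6 of heart muscle between 7.25 and 9.06.

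Some arrays stood apart before any comparison was made. Knockout replicate 1 scored -26.54 on principal component 1 (31.3% of the variance), while the other 7 arrays scored between -0.14 and 9.58. It was also the only knockout array with a low Xist level, 7.04 against 13.09 to 13.24 on the others. Among the wild types Xist was low on replicates 1 and 2 (6.32 and 6.59) and high on replicates 3 and 4 (13.25 and 13.29). Xist is made from the inactive X chromosome of females, and the Y-linked transcripts Uty, Kdm5d and Eif2s3y were high on the same 3 arrays on which Xist was low, so the sexes were unevenly spread over the groups. Wild-type replicate 4 stood apart in interferon-induced transcripts, as described with those genes. Values without knockout replicate 1 or wild-type replicate 4 are given beside a number of the results below.

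The targeted gene followed the labels. Atxn1l (Entrez 52335) stood at 6.68, 6.93, 7.05 and 6.79 on knockout arrays 1 to 4 and at 9.59, 9.43, 9.29 and 9.47 on wild-type arrays 1 to 4. Every knockout array lay more than 2 log2 units below every wild-type array. The difference of -2.58 (SE 0.09, adjusted p = 1.18e-06, limma) is a 5.99-fold lower signal, and it lay between -2.64 and -2.52 when each array was left out in turn. The partners of the protein were measured too. Atxn1, the paralogue, stood at 10.87, 10.77, 10.78 and 10.87 in the knockouts and at 10.77, 10.73, 10.68 and 10.80 in the wild types, and did not pass the test (difference 0.08, SE 0.05, adjusted p = 0.726). Cic, which encodes Capicua, stood at 10.01, 10.03, 10.01 and 9.92 against 9.96, 9.84, 9.77 and 9.83, and likewise missed the threshold (0.14, SE 0.05, adjusted p = 0.527). For both partners the levels of the groups overlapped.

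Across the array 9 probe sets passed the test, 0.0424% of those tested: 5 rose (0.0236%) and 4 fell (0.0189%), the deleted gene among the latter. At that share a gene list mostly holds no call, so that none passed in a list below says little about its members. On all 9 the 4 knockout arrays lay on one side of the 4 wild-type arrays, which their choice by p from the same arrays favours. Over all probe sets 585 (2.76%) had all knockouts above all wild types and 543 (2.56%) had them below. Without adjustment 1802 probe sets (8.5%) had p under 0.05, 964 higher (4.54%) and 838 lower (3.95%). The differences leaned to one side in size: of 140 probe sets more than 0.5 log2 units apart, 125 were higher in the knockouts and 15 lower, although the median of all probe sets was 0.0026 and 51.3% lay above 0. That lean includes knockout replicate 1, and it was not counted without that array.

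**Figure D1:**
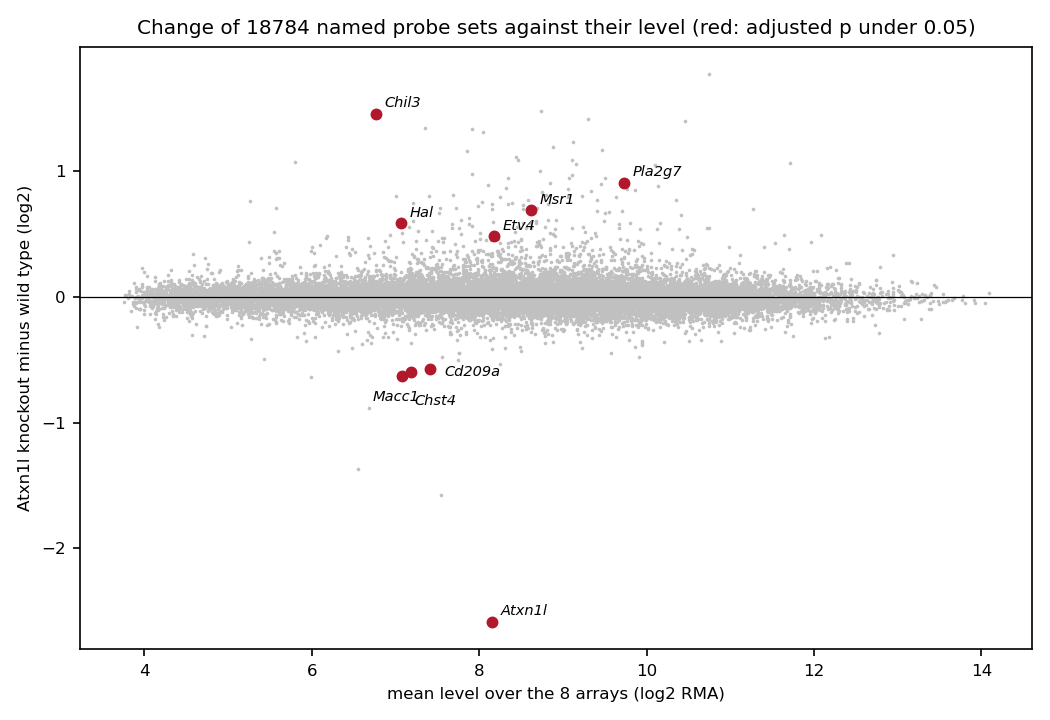
Difference between knockout and wild type (y axis, log2) against the mean level over the 8 arrays (x axis, log2 RMA) for 18784 named genes, 1 point each, with the 9 transcripts that passed the test in red. The red points are not the ones farthest from 0 alone: Etv4 at 0.48 passed, while grey points above 1, among them Ngp at 1.41, spread more between arrays and did not.

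Transcripts known from macrophages made up 3 of the 5 that rose. Chil3 (Entrez 12655), which encodes the secreted chitinase-like lectin Ym1 of alveolar and alternatively activated macrophages, stood at 7.98, 7.50, 7.06 and 7.46 in the knockouts and at 6.13, 6.22, 5.91 and 5.89 in the wild types. Every knockout lay above every wild type, and the difference was 1.46 (SE 0.16, adjusted p = 0.021, limma), or 2.75-fold. Pla2g7 (Entrez 27226), the secreted enzyme that breaks down platelet-activating factor, stood at 10.50, 9.82, 10.29 and 10.13 against 9.26, 9.34, 9.21 and 9.29. Here the wild types lay close together and the knockouts spread over a wider range, with replicate 2 the lowest, and the difference of 0.91 (SE 0.12) only just passed (adjusted p = 0.0497). Msr1 (Entrez 20288), the scavenger receptor that takes up modified lipoproteins, stood at 9.16, 8.89, 8.91 and 8.93 against 8.28, 8.31, 8.13 and 8.40. Knockout replicate 1 stood above the other knockouts, which were alike, and the difference was 0.69 (SE 0.08, adjusted p = 0.0197). None of these 3 differences depended on that replicate: without it they were 1.30, 0.80 and 0.63, each still past the threshold.

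Besides these 3 the transcription factor gene Etv4 and the enzyme gene Hal rose. Etv4 (Entrez 18612), an Ets factor and a known target of Capicua, stood at 8.39, 8.51, 8.38 and 8.40 in the knockouts and at 7.92, 7.96, 7.98 and 7.89 in the wild types. Both groups were tight, with an SD of 0.06 and 0.04, and the difference was 0.48 (SE 0.05, adjusted p = 0.013), or 1.40-fold. Hal (Entrez 15109), histidine ammonia-lyase, which turns histidine into urocanate, stood at 7.30, 7.29, 7.45 and 7.40 against 6.71, 6.93, 6.83 and 6.61. That difference was 0.59 (SE 0.07, adjusted p = 0.0344), with wild-type replicate 2 the closest to the knockouts. Of 9 measured genes of histidine and histamine metabolism, Hal alone had knockout arrays all above the wild types, beside 2.76% of all probe sets. The list's median was 0.04.

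Besides Atxn1l 3 transcripts fell. Chst4 (Entrez 26887), which encodes a sulfotransferase that puts the sulfate on the sugar ligands of L-selectin, stood at 6.88, 6.98, 6.88 and 6.79 in the knockouts and at 7.46, 7.43, 7.56 and 7.46 in the wild types, a difference of -0.59 (SE 0.05, adjusted p = 0.00787). Macc1 (Entrez 238455), known as an activator of transcription of the hepatocyte growth factor receptor Met, stood at 6.79, 6.62, 6.80 and 6.84 against 7.56, 7.34, 7.26 and 7.39, with wild-type replicate 1 the highest (difference -0.63, SE 0.07, adjusted p = 0.0234). Cd209a (Entrez 170786), the lectin known as DC-SIGN on dendritic cells, stood at 7.08, 7.16, 7.19 and 7.08 against 7.53, 7.70, 7.73 and 7.86 (difference -0.58, SE 0.07, adjusted p = 0.0253). All 3, like Chil3 and Hal among the genes that rose, were dim: wild-type means were 7.48, 7.39 and 7.70, and 6.04 and 6.77 for Chil3 and Hal, beside a median of 8.44 to 8.53 over all probe sets. When the dimmest 30% of probe sets was left out, Cd209a, Etv4, Msr1 and Atxn1l kept the call, Pla2g7 missed it (adjusted p = 0.0564) and the other 4 were not in the fit.

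**Figure D2:**
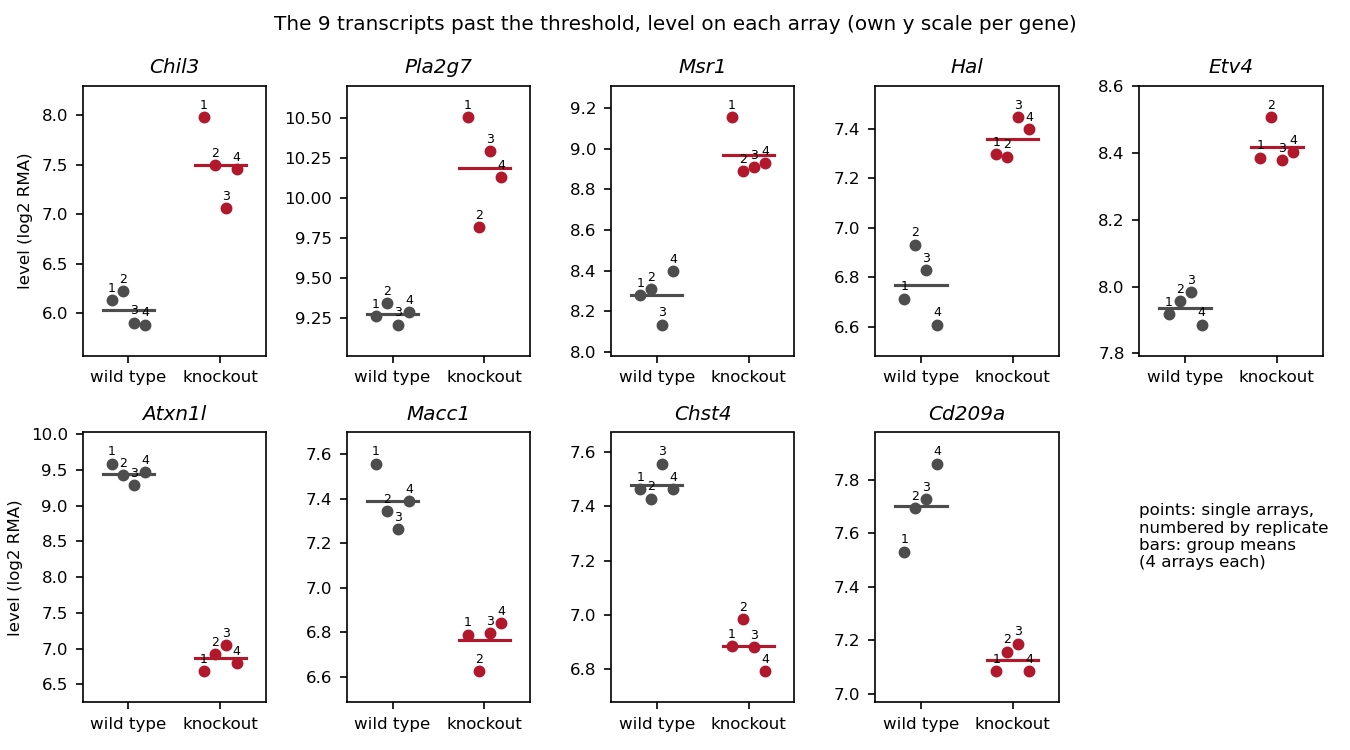
Level of the 9 transcripts that passed the test on each of the 8 arrays (y axis, log2 RMA, own scale per gene), wild types in grey and knockouts in red, with the replicate number beside each point and the group mean as a bar. In each panel the groups are apart, which the choice of these genes by p favours. Knockout replicate 1 is the highest knockout for Chil3 (7.98), Pla2g7 (10.50) and Msr1 (9.16) but not for Hal (7.30) or Etv4 (8.39).

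Most of the 9 calls depended on having all 8 arrays. Those of Atxn1l and Chst4 passed in all 8 fits that left out 1 array. Etv4 passed in 5 of 8 and was lost without knockout replicate 4 (adjusted p = 0.0701), wild-type replicate 1 (0.0624) and wild-type replicate 2 (0.0549). Chil3 passed in 4 of 8 and was lost without knockout replicate 4 (0.0775) and wild-type replicates 1, 2 and 3 (0.093, 0.0827 and 0.113). Macc1 passed in 4 of 8, lost without knockout replicates 3 and 4 (0.0956 and 0.0701) and wild-type replicates 1 and 2 (0.0624 and 0.102). Cd209a passed in 4 of 8, lost without knockout replicates 3 and 4 (0.0956 and 0.109) and wild-type replicates 2 and 3 (both 0.12). Msr1 and Hal passed in 3 of 8 and Pla2g7 in 2 of 8, with adjusted p of up to 0.093, 0.187 and 0.243, and kept the call without knockout replicates 1 and 2, and Msr1 and Hal also without wild-type replicate 4. The differences themselves moved little, between 1.30 and 1.61 for Chil3 and between 0.45 and 0.50 for Etv4.

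The Capicua target list held 23 measured genes, and Etv4 was its only member past the test, which 0.0424% of all probe sets passed. Its median difference was 0.03, 14 of 23 members lay above 0, and 2 had all knockouts above all wild types (2.76% of all probe sets had): Etv4 and Ccnd1, cyclin D1, at 11.93, 11.98, 11.87 and 11.87 against 11.74, 11.67, 11.80 and 11.86 (0.14, SE 0.05, adjusted p = 0.527). The mean of the list lay at 9.26, 9.37, 9.28 and 9.27 in the knockouts and at 9.31, 9.29, 9.25 and 9.22 in the wild types, so the groups overlapped. Egr1, an early response gene of the same kinase pathway, stood apart in the other direction without passing (-0.48, SE 0.22, adjusted p = 0.602): wild-type replicates 1 and 2 stood at 10.78 and 10.39, the others at 9.83 and 9.58, and the knockouts between 9.51 and 9.82. These 2 high wild types are the arrays with low Xist.

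Capicua binds DNA at octamers, TGAATGAA or TGAATGGA, and promoter windows of 300 bases around the start from RefSeq (GRCm38.p6, most of the window upstream, read in the direction of the gene) were searched for them on both strands. Of 32851 windows of this length 811 (2.47%) held one. Of the 9 called genes 7 had a window, which Etv4 and Msr1 did not, and none of those 7 held an octamer. Of the 23 Capicua target genes 12 had a window, 18 windows in all, and 2 held the octamer: Spred3, an inhibitor of the Ras to ERK pathway, and Shc4, an adaptor of receptor tyrosine kinases. Their windows are shown because they carry the octamers, in capitals: Spred3 at chr7:29168598-29168897, minus strand, with TGAATGAA from position -10, and Shc4 at chr2:125724099-125724398, minus strand, with TGAATGGA and TGAATGAA both on the opposite strand, so that the capitals read as their reverse complements.
Spred3: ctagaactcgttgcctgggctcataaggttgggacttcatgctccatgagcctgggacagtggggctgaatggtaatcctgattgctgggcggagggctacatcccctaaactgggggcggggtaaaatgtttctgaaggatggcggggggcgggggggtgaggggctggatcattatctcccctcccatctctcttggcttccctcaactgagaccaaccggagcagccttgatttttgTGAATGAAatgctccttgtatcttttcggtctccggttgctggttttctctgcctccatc
Shc4: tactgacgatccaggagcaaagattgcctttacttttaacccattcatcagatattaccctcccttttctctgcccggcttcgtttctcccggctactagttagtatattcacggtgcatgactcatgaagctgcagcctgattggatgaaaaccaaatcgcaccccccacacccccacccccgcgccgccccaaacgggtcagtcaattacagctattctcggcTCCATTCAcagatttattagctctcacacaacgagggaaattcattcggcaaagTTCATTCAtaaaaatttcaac
Spred3 stood at 8.13, 8.25, 8.15 and 8.15 in the knockouts and at 8.04, 8.16, 8.03 and 7.94 in the wild types (0.13, SE 0.06, adjusted p = 0.571), and wild-type replicate 2 overlapped the knockouts. Shc4 stood at 7.13, 7.05, 7.10 and 7.13 against 6.99, 7.14, 7.10 and 7.05 (0.03, SE 0.05, adjusted p = 0.923, limma), so its groups overlapped too. The window of Chil3, the transcript with the largest rise among the 5, is shown for comparison, at chr3:106167515-106167814, minus strand, with the TATAAA that it holds from position -3 in capitals. TATAAA on the gene's strand was found in 8.32% of the windows.
Chil3: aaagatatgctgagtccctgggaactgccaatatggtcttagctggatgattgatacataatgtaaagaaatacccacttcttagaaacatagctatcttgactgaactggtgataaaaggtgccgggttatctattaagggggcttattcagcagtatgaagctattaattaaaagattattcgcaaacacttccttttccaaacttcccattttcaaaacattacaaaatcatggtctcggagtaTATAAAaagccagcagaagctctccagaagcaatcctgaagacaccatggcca

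Of the genes that missed the threshold, those of smallest p on the high side were of several kinds, with Tlr9 the nearest to it. Tlr9, the endosomal receptor for microbial DNA, stood at 8.66, 8.57, 8.69 and 8.58 against 8.11, 8.31, 8.25 and 8.22 (0.40, SE 0.06, adjusted p = 0.0607). Gpr65, a proton-sensing receptor of leukocytes, stood at 8.66, 8.09, 8.32 and 8.58 against 7.53, 7.83, 7.48 and 7.78 (0.76, SE 0.13, adjusted p = 0.192). Plbd1 (0.59), a granule protein of myeloid cells, Hcls1 (0.43), a cortactin-like protein of blood cells, Lrrc25 (0.46) and C1qb (0.85) had the same adjusted p of 0.192. Chp2, a calcineurin-like protein, differed by 0.39 (adjusted p = 0.12). Lama1, the laminin chain of early basement membranes, stood at 8.15, 8.28, 8.40 and 8.38 against 7.80, 7.75, 7.85 and 7.98 (0.46, SE 0.07, adjusted p = 0.124), and unlike the macrophage genes it was lowest on knockout replicate 1.

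On the low side Rbm12b1 was nearest to the threshold. This RNA-binding protein gene stood at 8.05, 7.88, 7.87 and 8.13 against 8.47, 8.43, 8.54 and 8.62 (-0.53, SE 0.07, adjusted p = 0.0518, beside 0.0497 for Pla2g7 just inside). Angpt1, the ligand of the endothelial receptor Tie2, stood at 9.49, 9.64, 9.73 and 9.79 against 10.004, 10.06, 10.01 and 10.17 (-0.39, SE 0.07, adjusted p = 0.201), with every knockout below every wild type. Cav2, which forms caveolae with caveolin-1, stood at 11.31, 11.25, 11.28 and 11.31 against 11.46, 11.62, 11.56 and 11.52 (-0.25, SE 0.05, adjusted p = 0.217). Mme, the peptidase neprilysin, differed by -0.26 (adjusted p = 0.237), Maoa, which oxidises monoamines, by -0.29 (0.249), and St3gal6, a sialyltransferase, by -0.28 (0.207). The knockouts and wild types did not overlap for any of the 15 lower genes of smallest p. A choice by p favours such separation, and 2.56% of all probe sets had all knockouts below all wild types.

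**Figure D3:**
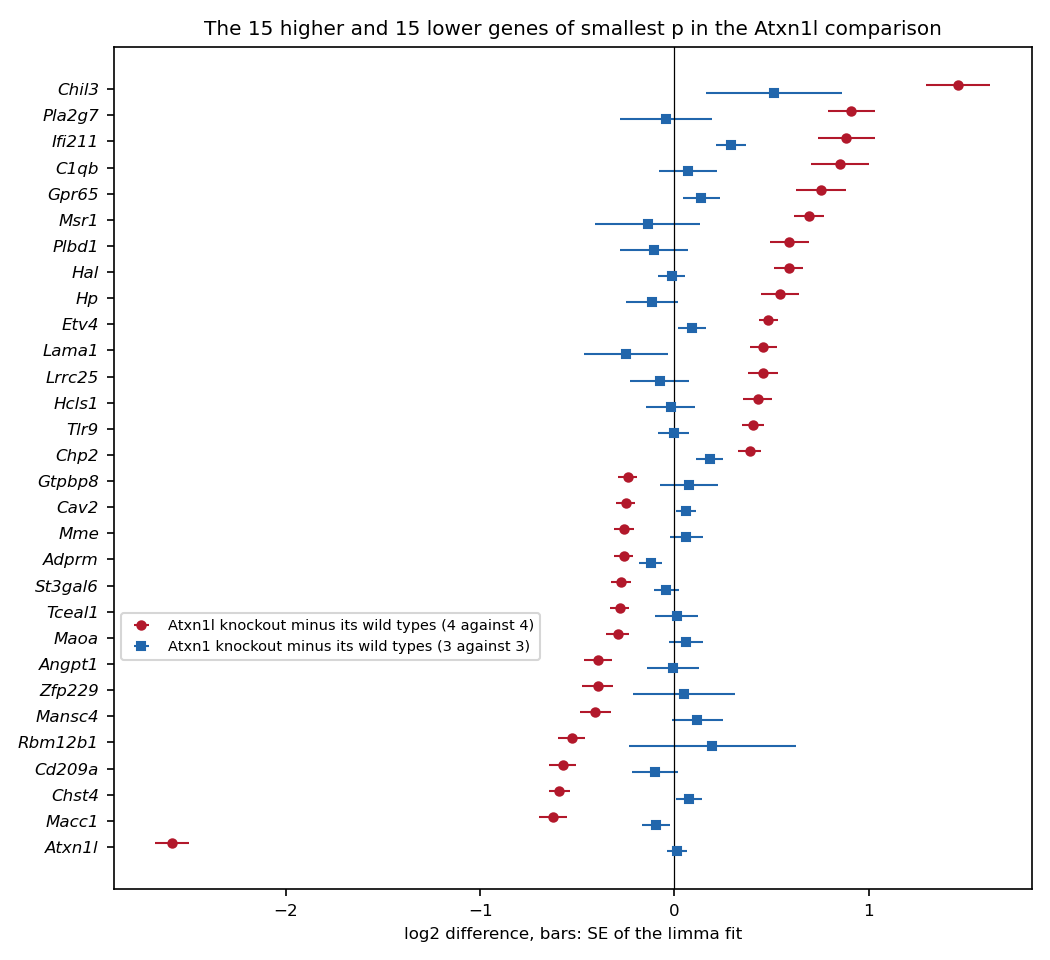
Difference from wild type (x axis, log2, bars are the SE of the limma fit) of the 15 higher and 15 lower genes of smallest p in the Atxn1l comparison, in red, and of the same genes in the Atxn1 comparison, in blue. The genes were chosen for the red values, which therefore lie away from 0; the blue ones lie between -0.25 (Lama1) and 0.51 (Chil3).

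Macrophage genes as a group lay higher. Of 32 measured markers 26 were above 0. The test was passed by 3 (Chil3, Pla2g7 and Msr1), beside 0.0424% of all probe sets, and none fell. In 11 all knockouts lay above all wild types, beside 2.76% of all probe sets. The list was drawn up with earlier results of these data known, so these counts describe it and no more. Its median difference was 0.30. The mean of the list lay at 9.52, 8.99, 9.01 and 9.08 on the knockout arrays and at 8.82, 8.87, 8.76 and 8.74 on the wild types, so each knockout was above each wild type, with replicate 1 far above the rest. Without replicate 1 the median was 0.13 and 11 markers still had the other 3 knockouts above all wild types, beside 3.66% of all probe sets. Among the general markers Csf1r, the receptor for the growth factor of macrophages, differed by 0.48, Adgre1 (F4/80) by 0.68, Fcgr1 by 0.38 and Cx3cr1 by 0.30. Among genes known from mature alveolar macrophages Chil3 rose, while others lay near 0: Siglecf differed by -0.05, Pparg by -0.06, Car4 by -0.06 and Fabp5 by -0.08, and the tissue receptors Mertk and Cd163 by -0.21 and -0.13. In whole lung more macrophages and more of these transcripts per macrophage cannot be told apart, here and for every cell type that follows.

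Complement genes made by or acting on macrophages followed the same arrays. C1qb stood at 10.84, 10.08, 10.12 and 10.13 in the knockouts and at 9.39, 9.40, 9.51 and 9.44 in the wild types (0.85, SE 0.15, adjusted p = 0.192), and C1qc at 10.37, 9.54, 9.70 and 9.57 against 9.06, 8.99, 9.03 and 9.02 (0.77, SE 0.16, adjusted p = 0.249). Both encode chains of C1q, the first component of the classical pathway. The wild types were almost level and the knockouts were above them, with replicate 1 far above the other 3. Without it C1qb, at 0.67, and C1qc, at 0.58, passed the threshold (adjusted p = 0.00299 and 0.0096). C3ar1, the receptor for the C3a fragment, stood at 10.94, 9.39, 9.65 and 9.63 against 8.99, 9.09, 8.99 and 8.92 (0.90, SE 0.28, adjusted p = 0.42), and without replicate 1 the difference was 0.56 and passed the test (adjusted p = 0.043). Of 21 complement and coagulation genes 16 lay above 0 and 7 had all knockouts above all wild types (beside 2.76% of all probe sets), with a median of 0.24, or 0.10 without replicate 1.

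Neutrophil granule genes lay higher, by an amount that depended on 1 array. All 22 measured genes lay above 0, with a median of 0.50 (0.26 without knockout replicate 1), and none passed the test. Ngp, a neutrophil granule protein, stood at 12.18, 10.90, 10.91 and 10.65 against 10.26, 10.11, 9.43 and 9.21 (1.41, SE 0.34, adjusted p = 0.318). Ltf, lactoferrin, stood at 10.65, 9.24, 9.17 and 8.87 against 8.62, 8.41, 8.15 and 7.96 (1.20, SE 0.33, adjusted p = 0.366). For both, knockout replicate 1 was highest by more than 1 log2 unit, yet the other 3 knockouts also lay above all wild types, as they did for 6 of the 22 genes, beside 3.66% of all probe sets. The mean of the list was 9.58, 8.57, 8.45 and 8.30 in the knockouts against 8.21, 8.43, 7.97 and 7.90, so knockout replicate 4 lay below wild-type replicate 2. The rank of the list turned with the array: with all 8 its median was above those of the interferon-induced GTPases (0.48), MHC class I (0.34) and interferon-stimulated genes (0.36), and without knockout replicate 1 it was below all 3 (0.52, 0.39 and 0.30). With Xist as a covariate Ngp and Stfa1, a stefin of neutrophils, passed the test, and on the arrays with high Xist alone Ngp passed.

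**Figure D4:**
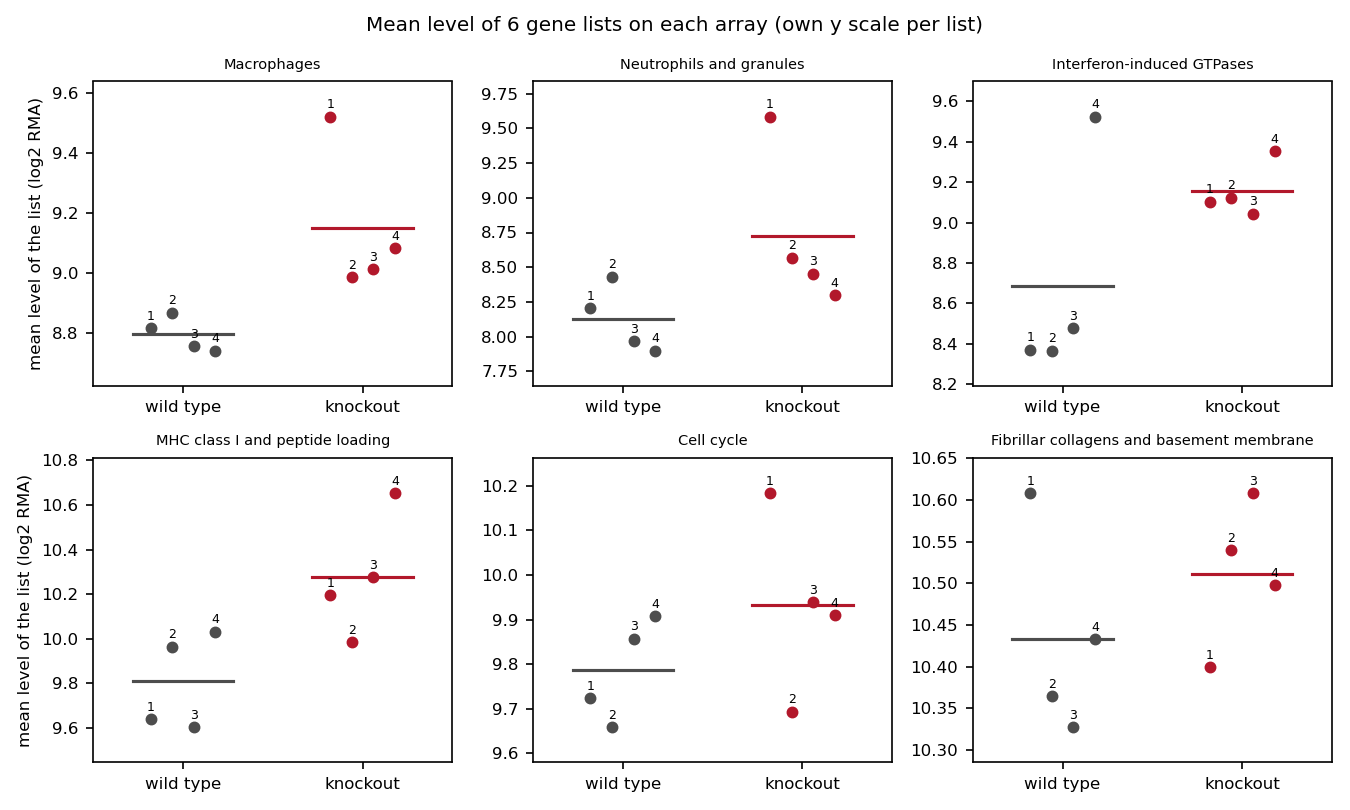
Mean level of 6 gene lists on each array (y axis, log2 RMA, own scale per list), wild types in grey and knockouts in red, numbered by replicate, with group means as bars. Macrophage means separate the groups (lowest knockout 8.99, highest wild type 8.87), neutrophil means are led by knockout replicate 1 (9.58), and interferon-induced GTPases are highest on wild-type replicate 4 (9.52).

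Of the matrix metalloproteinases, the enzymes through which matrix remodelling could change, none of 18 measured genes passed the test. Mmp8, neutrophil collagenase, stood at 9.98, 8.36, 8.12 and 7.89 against 7.53, 7.69, 6.98 and 6.80 (1.34, SE 0.41, adjusted p = 0.42), and Mmp9, gelatinase B, at 10.30, 9.06, 8.82 and 8.59 against 8.59, 8.76, 8.31 and 8.13 (0.74, SE 0.32, adjusted p = 0.569). Both had the order of arrays seen for the neutrophil genes, of which Mmp8 is one, with knockout replicate 1 far above the rest. Without that array the differences were 0.87 and 0.37. Mmp12, the elastase of macrophages, was even over the knockouts, at 7.38, 7.49, 7.51 and 7.44, against 6.93, 7.25, 7.33 and 7.23 (0.27, SE 0.08, adjusted p = 0.415). Mmp8 and Mmp12 were the 2 of 18 genes with all knockouts above all wild types, beside 2.76% of all probe sets. Without knockout replicate 1 there were 4, beside 3.66%. Mmp13, a collagenase, differed by 0.13. The median of the 18 genes was 0.07, and 13 lay above 0.

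The inhibitors of these proteases spread widely. Of 18 measured genes 13 lay above 0, none passed, and the median was 0.06, or 0.18 without the dimmest 30% of probe sets. Serpina3n, an inhibitor of the antichymotrypsin family, was the one with all knockouts above all wild types, beside 2.76% of all probe sets (0.67, SE 0.29, adjusted p = 0.57), at 8.93, 7.74, 7.38 and 7.39 against 7.21, 7.18, 7.11 and 7.25, highest on knockout replicate 1, while Serpina1b, an alpha-1-antitrypsin, differed by -0.37 and Slpi, a secreted inhibitor of leukocyte elastase, by 0.34. The 3 stefins Stfa1 (1.07), Stfa2 (1.09) and Stfa3 (1.16), cysteine protease inhibitors that mouse neutrophils make, followed the neutrophil arrays, and without knockout replicate 1 Stfa2 and Stfa3 both differed by 0.63. Stfa1 stood at 13.32, 12.20, 11.85 and 11.64 against 11.41, 12.03, 10.66 and 10.65. Stefin genes are close copies of each other, so their probe sets may share signal.

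Interferon-stimulated genes lay higher in the knockouts, and wild-type replicate 4 set how clearly. Of 22 measured genes all lay above 0, none passed the test, 5 had all knockouts above all wild types (beside 2.76% of all probe sets), and the median was 0.36. Oas1a, a sensor enzyme of double-stranded RNA, stood at 7.996, 7.996, 8.08 and 7.84 against 7.68, 7.71, 7.64 and 7.76 (0.28, SE 0.06, adjusted p = 0.251). Its relative Oas2 stood at 8.48, 7.75, 7.83 and 8.26 against 7.14, 7.46, 7.32 and 7.58 (0.71, SE 0.16, adjusted p = 0.282). In both the groups were apart. The mean of the list was 9.06, 8.71, 8.70 and 9.02 against 8.32, 8.29, 8.39 and 8.77, so wild-type replicate 4 lay among the knockouts. Against the other 3 wild types 18 of 22 genes had all knockouts above, beside 3.95% of all probe sets, and the median was 0.45. That array was picked out after its values were seen, which favours such a rise.

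The interferon-induced GTPases, which guard cells against intracellular microbes, turned on that array still more. All 11 measured genes lay above 0 with a median of 0.48, and for none were the knockouts all above the wild types. Gbp6, a guanylate-binding protein, stood at 8.99, 8.85, 8.77 and 9.36 in the knockouts and at 7.54, 7.22, 7.38 and 9.37 in the wild types (1.12, SE 0.40, adjusted p = 0.512). Igtp stood at 8.67, 8.84, 8.88 and 8.89 against 7.81, 7.87, 8.07 and 9.16, and Irgm1 at 9.55, 9.49, 9.41 and 9.61 against 8.73, 8.50, 8.73 and 9.88. In all 3 the knockouts were even, 3 wild types were lower, and the remaining wild type was at or above the knockouts. Without wild-type replicate 4, 10 of 11 had all knockouts above the other wild types, beside 3.95% of all probe sets. The median was then 0.74, and Igtp and Irgm1 differed by 0.90 and 0.86. Across the array 25 probe sets then passed the test, among them Gbp2, Gbp4, Gbp5, Gbp6, Irgm1, Igtp, Ifi47 and Tap1. Between the arrays with high Xist, where replicate 4 is 1 of 2 wild types, the median was 0.18. That array was picked out after its values were seen, and whether its level or that of the other wild types is the usual one at this age was not tested.

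Genes of antigen presentation on MHC class I lay higher too. All 15 measured genes lay above 0, with a median of 0.34, and none passed the test. The knockouts were all above the wild types for 1 of them, beside 2.76% of all probe sets. Without wild-type replicate 4, picked out after its values were seen, they were so for 7, beside 3.95% of all probe sets then. Tap1, the peptide transporter, stood at 9.97, 10.02, 9.95 and 10.28 against 9.15, 9.26, 9.09 and 9.97 (0.69, SE 0.17, adjusted p = 0.333), with wild-type replicate 4 level with the knockouts. H2-D1, a classical class I chain, stood at 12.13, 11.87, 12.15 and 12.57 against 11.61, 11.97, 11.60 and 11.79 (0.44, SE 0.14, adjusted p = 0.42), and there it was wild-type replicate 2 that overlapped. Ifi211, an interferon-activated DNA-binding protein, had no overlap, at 10.71, 10.31, 10.56 and 10.71 against 9.34, 9.72, 9.62 and 10.08 (0.88, SE 0.15, adjusted p = 0.192). Cxcl9 and Cxcl10, chemokines that interferon-gamma induces, differed by 0.80 (SE 0.23) and 0.58 (SE 0.15). Of the 27 cytokines and chemokines measured 24 lay above 0, with a median of 0.11, and none passed. Without knockout replicate 1, 20 lay above 0 and the median was 0.057, and without the dimmest 30% of probe sets it was 0.25.

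Monocyte and dendritic cell genes did not move as one. Cd209a fell, while 3 of the 20 measured genes had all knockouts above all wild types without passing, beside 2.76% of all probe sets. Xcr1, the receptor of cross-presenting dendritic cells, stood at 7.65, 7.71, 7.97 and 7.94 against 7.21, 7.53, 7.38 and 7.26 (0.47, SE 0.09, adjusted p = 0.232). Irf8, the transcription factor that these cells need, stood at 10.09, 10.01, 10.06 and 9.93 against 9.69, 9.72, 9.79 and 9.75 (0.28, SE 0.05, adjusted p = 0.192). Itgam, the integrin CD11b of myeloid cells, stood at 9.98, 8.74, 9.11 and 8.86 against 8.24, 8.52, 8.27 and 8.32 (0.83, SE 0.23, adjusted p = 0.366). Xcr1 was highest on knockout replicates 3 and 4, and Itgam on replicate 1. The median of the list was 0.11.

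Lymphocytes, platelets and red cells were measured as the other blood cells that a lung sample holds. Of 19 lymphocyte genes none passed and the median was 0.05. Gzma, granzyme A, a protease of cytotoxic cells, stood at 7.46, 7.38, 8.11 and 8.58 against 6.99, 7.01, 7.16 and 7.54 (0.71, SE 0.24, adjusted p = 0.482). All 9 platelet genes lay above 0 (median 0.14, or 0.09 without knockout replicate 1), with Pf4, platelet factor 4, at 10.15, 9.40, 9.26 and 9.24 against 8.96, 9.20, 9.05 and 9.08 (0.44, or 0.23 without that replicate). Of 10 erythroid genes 4 lay above 0, the median was -0.05, and the mean of the list overlapped, at 9.03 to 9.14 against 9.03 to 9.10. The part of blood content in the other results was not tested.

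Genes of the structural cells of the lung had medians near 0, and none passed, beside 0.0424% of all probe sets that did. Of 20 genes of the alveolar type 2 cells, which make surfactant, none passed, 10 lay above 0 and the median was -0.01. Of 15 genes of the alveolar type 1 cells, over which gas is exchanged, none passed, 5 lay above 0, the median was -0.03, and 3 had all knockouts below all wild types, beside 2.56% of all probe sets. One of these was Clic5, a chloride channel protein of the cell cortex, at 12.23, 12.24, 12.23 and 12.20 against 12.45, 12.36, 12.33 and 12.27 (-0.13, SE 0.05, adjusted p = 0.535). Igfbp2, an insulin-like growth factor binding protein of mature type 1 cells, lay the other way, at 9.57, 9.41, 9.50 and 9.50 against 9.35, 9.26, 8.96 and 9.16 (0.32, SE 0.08, adjusted p = 0.334). Of 15 club and secretory cell genes none passed. The one farthest above 0 was Hp, haptoglobin, at 10.91, 10.67, 10.61 and 10.44 against 10.15, 10.18, 10.17 and 9.95 (0.54, SE 0.10, adjusted p = 0.192). Of 21 endothelial genes 7 lay above 0, with a median of -0.03. Emcn, the capillary sialomucin endomucin, stood at 12.02, 11.99, 12.01 and 12.10 against 12.36, 12.20, 12.15 and 12.19 (-0.19, SE 0.06, adjusted p = 0.39).

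Matrix genes, through which septa and elastic fibres are built, lay slightly above 0 and none passed. Among 18 elastic fibre genes 13 lay above 0, with a median of 0.08. Fbln2, fibulin-2, a glycoprotein bound to elastin, was the one with all knockouts above all wild types, beside 2.76% of all probe sets. It stood at 10.13, 10.31, 10.36 and 10.10 against 10.01, 9.64, 9.86 and 9.99 (0.35, SE 0.09, adjusted p = 0.35). Lox, the enzyme that crosslinks elastin and collagen, differed by 0.22 (SE 0.09), or 0.14 without knockout replicate 1, and overlapped. Among 25 collagen and basement membrane genes 22 lay above 0, but the median was 0.06 (0.11 without knockout replicate 1, and 0.17 between the arrays with high Xist) and the means of the list overlapped, at 10.40 to 10.61 against 10.33 to 10.61. Of 30 signals of septation 15 lay above 0, with a median of -0.01. Tgfb1, transforming growth factor beta 1, stood at 10.87, 10.82, 10.83 and 10.73 against 10.68, 10.49, 10.54 and 10.60 (0.23, SE 0.06, adjusted p = 0.31). Fgf7, a fibroblast growth factor that acts on the epithelium, stood at 9.46, 9.42, 9.50 and 9.52 against 9.74, 9.79, 9.57 and 9.59 (-0.20, SE 0.06, adjusted p = 0.419). For both the groups were apart by little.

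**Figure D5:**
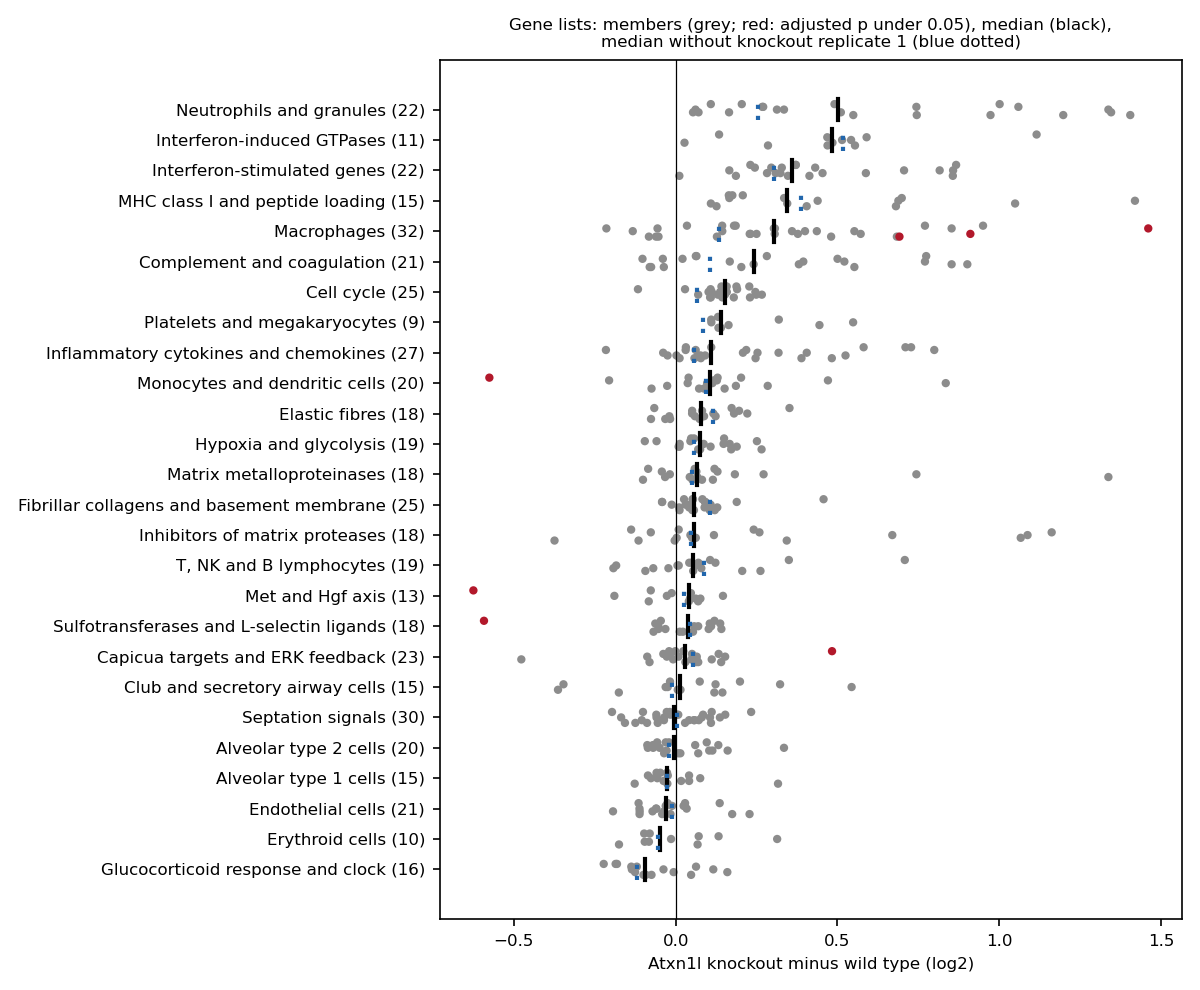
Difference between knockout and wild type (x axis, log2) of each member of 26 gene lists, with the number of measured members in brackets, members past the test in red, the median as a black bar and the median without knockout replicate 1 as a blue dotted bar. Neutrophil, macrophage, complement, interferon and MHC class I lists lie to the right, and the blue bar falls short of the black one for neutrophils (0.26 and 0.50) and macrophages (0.13 and 0.30), while epithelial and endothelial lists lie about 0.

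Proliferation and metabolism were read from the remaining lists. Of 25 cell cycle genes 24 lay above 0, with a median of 0.15, and none passed. Mcm2, a subunit of the replicative helicase, stood at 10.01, 9.88, 9.99 and 9.89 against 9.59, 9.52, 9.87 and 9.88, so that the low-Xist wild types 1 and 2 were lowest and the high-Xist ones almost reached the knockouts (0.23, SE 0.09, adjusted p = 0.516). Without knockout replicate 1 the list's median was 0.07, and between the arrays with high Xist it was -0.02. Of 19 genes of hypoxia and glycolysis 17 lay above 0, with a median of 0.08, and the mean of the list was 9.50 to 9.60 in the knockouts against 9.45 to 9.48 in the wild types, without overlap. Ldha, lactate dehydrogenase A, stood at 12.43, 12.31, 12.40 and 12.33 against 12.23, 12.19, 12.24 and 12.21 (0.15, SE 0.05, adjusted p = 0.42). Of 16 glucocorticoid and clock genes 4 lay above 0, with a median of -0.10. Tsc22d3, a glucocorticoid-induced leucine zipper protein, stood at 9.61, 9.74, 9.84 and 9.85 against 9.98, 10.03, 9.88 and 10.05 (-0.22, SE 0.07, adjusted p = 0.408). Between the arrays with high Xist that median was 0.03.

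The lists that hold Macc1 and Chst4 were centred near 0. Of 13 genes of the Met and Hgf axis, with Macc1 at -0.63, 7 lay above 0 and the median was 0.04. Hgf, the ligand of Met, was the other member with all knockouts below all wild types, beside 2.56% of all probe sets. It stood at 8.87, 9.02, 9.03 and 9.10 against 9.20, 9.26, 9.13 and 9.18 (-0.19, SE 0.06, adjusted p = 0.42). Of 18 sulfotransferases and enzymes of L-selectin ligands, with Chst4 at -0.59, 11 lay above 0 and the median was 0.04.

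Chst4 and Hp lie near the deleted gene. In the order of genes in GRCm38.p6, counting those measured, Chst4 is the fifth on one side of Atxn1l and Hp the fifth on the other. The genes in between lay closer to 0: on the side of Chst4, Ap1g1, Phlpp2, Marveld3 and Tat differed by -0.03, -0.02, -0.01 and -0.10, and on the side of Hp, Zfp821, Ist1, Pkd1l3 and Dhodh by -0.08, -0.07, 0.26 and -0.02. Pkd1l3 (SE 0.07, adjusted p = 0.366) alone among these 8 had all knockouts above all wild types, beside 2.76% of all probe sets.

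Whether a difference was the same after loss of either gene was asked by the contrast with the Atxn1 knockouts, which had their own wild types, in 1 limma fit of all 14 arrays. That contrast passed for 2 probe sets (0.00943%), Atxn1l itself (-2.60, SE 0.12, adjusted p = 7.01e-08) and Chst4 (-0.67, SE 0.08, adjusted p = 0.0166), while 688 (3.24%) had an unadjusted p under 0.05. Chst4 differed by 0.07 (SE 0.07) between Atxn1 knockouts and their wild types. Its contrast lost the call in 8 of the 14 fits that left out 1 array, with the difference between -0.71 and -0.61 throughout: without Atxn1l knockout replicates 1 and 3 (adjusted p = 0.052 and 0.0638), their wild-type replicates 1, 3 and 4 (0.0549, 0.052 and 0.0542) and each of the 3 Atxn1 knockouts (0.0891, 0.0586 and 0.109). For the other 7 called genes the contrast did not pass. It was 0.60 (SE 0.11, adjusted p = 0.549) for Hal, -0.53 (SE 0.11, adjusted p = 0.865) for Macc1, 0.39 (SE 0.08, adjusted p = 0.865) for Etv4 and 0.95 (SE 0.39, adjusted p = 1) for Chil3, whose own difference in the Atxn1 knockouts was 0.51 (SE 0.35). Msr1 and Pla2g7 differed in the Atxn1 knockouts by -0.14 (SE 0.27) and -0.04 (SE 0.24). With 3 arrays a group these SEs are wide, and a contrast that misses the threshold does not show that the knockouts act alike. Some lists leaned the same way in both comparisons. In the Atxn1 knockouts all 11 interferon-induced GTPases (median 0.51) and all 15 MHC class I genes (median 0.24) lay above 0. Of the 22 interferon-stimulated genes 19 did so (median 0.15). Lists near 0 in the Atxn1l comparison could lean up in the Atxn1 comparison too, as did 29 of 30 septation signals (median 0.05) and 20 of 23 Capicua targets (median 0.05). The share of all probe sets above 0 in the Atxn1 comparison is not given here. Neutrophil genes lay the other way there, with 1 of 22 above 0 and a median of -0.26, as did cell cycle genes, with 2 of 25 and -0.06. No list was tested.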

How the data were processed

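Log2 RMA levels of 14 arrays were deposited by the authors (RMA per the submitters' processing notes). Per the series text, the Atxn1l set of 8 arrays was RMA-processed by itself. Which probe set definition underlies them is not stated in any source read here. Of 21212 probe sets 18786 had 1 gene symbol, 6 several and 2420 none, and 18784 genes were named by 1 probe set each. The 8 arrays were fitted alone as knockout minus wild type, using limma 3.58.1 under R 4.3.3 with lmFit, eBayes and no covariate. The contrast with the Atxn1 knockouts came from 1 fit of 14 arrays with 4 group means.

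Members and gene lists were chosen with earlier results of these data known, so 44 lists (785 memberships, 721 matched) are given by counts and medians, without tests. Named genes were Atxn1l, Atxn1 and Cic, all calls, the 15 of smallest p on each side, the 4 leading members by p in 26 lists, the 3 neighbours of Atxn1l on each side, Xist and Y-linked genes. Other list members and neighbours were named after their values were seen. The number of arrays limits the precision. The limma p-values set the difference between group means against the spread of arrays within the groups, moderated over all probe sets. The main fit held no term for sex or litter. The limma step was tested on simulated data. Alternatives were a term for the replicate number, another prior, weighting of arrays, dropping dim probe sets, other scalings, a threshold of 0.1, Xist as a covariate, leaving out each array and, chosen after seeing the data, the arrays with high Xist only.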

Additional observations from a re-analysis of the deposited data

Results flagged for a closer look

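An array was picked out where its gap to the nearest array of its group of 4, divided by the range of the group, was above Dixon's critical value for 4 samples. Chance picks out about 1 in 20 unrelated groups. The groups here share the same arrays, and the list means hold some of the same genes, so that rate is no yardstick for them. Of 318 groups 25 were picked out, 12 of them through knockout replicate 1 and 7 through wild-type replicate 4.

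Knockout replicate 1 stood above the other knockouts for Msr1 (9.16), C1qb (10.84), C3ar1 (10.94) and Stfa3 (10.02), and below them for the erythroid genes Gata1 (6.61) and Car2 (11.94). Its mean over the complement genes was 9.49, against 8.91 to 8.93 on the other knockouts, and over the protease inhibitors 9.17. Among sex-linked genes it stood apart for Xist (7.04), Kdm5d (8.71), Eif2s3y (10.19) and Uty (10.45).

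Wild-type replicate 4 stood above the other wild types for Gbp6 (9.37), Irgm1 (9.88) and H2-T23 (10.58) and in the mean of the interferon-induced GTPases (9.52), and below them for Hp (9.95), Prox1 (7.78) and Gata1 (6.31). Other arrays that stood apart were knockout replicate 2 for Lrrc25 (7.47) and Spred3 (8.25), knockout replicate 4 for Marveld3 (7.99), wild-type replicate 2 for Gzmb (6.47) and Bub1b (8.97), and wild-type replicate 1 for the mean of the Met and Hgf axis (9.39).

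The effects of the 2 knockouts differed, by the limma contrast, for Atxn1l (-2.60) and Chst4 (-0.67).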

How the results depend on the processing

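The count of 9 called probe sets was 2 with the replicate number as a block, 4 without the dimmest 30% of probe sets and 2 on the arrays with high Xist only (Atxn1l and, outside the 9, Ngp), and from 2 to 25 when 1 array was left out. It was 9 with a trended and robust prior (4 higher, 5 lower, Rbm12b1 in and Pla2g7 out), 10 after median centring (5 and 5), 9 after cyclic loess (6 and 3, against 5 and 4), 12 with array weights, 12 with Xist as a covariate (8 of the 9, Hal lost at adjusted p = 0.0565, and 4 others) and 11 at a threshold of 0.1. Leaving out knockout replicates 1 and 2 gave 16 and 19 calls and wild-type replicate 4 gave 25; the other 5 arrays gave 2 to 4. The Atxn1l call was kept under all of these. The count of 2 for the contrast between knockouts was 1 with the replicate block and 1 or 2 when 1 array was left out, and Chst4 then lost the call (adjusted p = 0.230 with the block). Whether same-numbered arrays form pairs could not be settled from the values. Their deviations correlated at 0.088, 0.037, 0.227 and 0.376, and numbers 3 and 4, but not 1 and 2, correlated best with their own. With the block Chil3 and Atxn1l kept the call, and the other 7 had adjusted p of 0.088 to 0.141.

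Of 2802 values of named genes and list medians under the alternatives 2723 were counted as unchanged. For a gene that meant the same direction and side of the threshold. For a list median it meant a move below the larger SD of the array means in its groups. A median could thus change sign and count as unchanged. On the arrays with high Xist the cell cycle (0.15 to -0.02) and glucocorticoid (-0.10 to 0.03) medians did so. Of the rest, 50 gene values lost and 21 gained a call, 2 medians near 0 moved and 6 gene values turned. Those were Kdm5d (0.024) and Eif2s3y (0.20) with Xist as a covariate, Xist (-0.10) and Eif2s3y (0.10) on the arrays with high Xist, Marveld3 (0.042) without knockout replicate 4 and Phlpp2 (0.0064) without wild-type replicate 4, with ranges over the arrays left out of -0.040 to 0.042 and -0.039 to 0.0064. The cause was not tested. Low levels limit what can be seen of dim genes, since their signal lies close to the background.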

Other observations

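Genes outside the lists described gave a few more values. Of 17 genes of cholesterol and fatty acid synthesis 14 lay above 0 with a median of 0.11 (0.066 without knockout replicate 1), and 3 had all knockouts above all wild types, beside 2.76% of all probe sets, but on the arrays with high Xist the median was -0.03. Of 10 genes of MHC class II, which presents peptides to helper T cells, 9 lay above 0 with a median of 0.09, and the mean of the list overlapped, at 9.003 to 9.40 in the knockouts against 8.94 to 9.17. Of 18 ciliated cell genes 15 lay above 0 (median 0.10) and none passed. Aspn, asporin, a small proteoglycan of fibroblasts, was the one of 13 smooth muscle and myofibroblast genes with all knockouts below all wild types (-0.32). That position was held by 2.56% of all probe sets. Of 15 genes of mast cells, basophils and eosinophils the median was 0.00.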
